A study of Mus musculus with 21 samples.

Results

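The Hox genes are the 39 mouse genes whose symbols are Hoxa, Hoxb, Hoxc or Hoxd followed by a number, and all of them were taken from the 24091 genes of the per-library table by that name pattern, without regard to their values. They encode homeodomain transcription factors that give cells their position along the body axis and the limbs. The genes lie in 4 clusters. Within a cluster, genes with low paralogue numbers (the 3' end) are used early and towards the head, and genes with high numbers (the 5' end) late and towards the tail, so the set of Hox genes that a mesenchymal cell keeps expressed records where in the embryo it came from. Polycomb complexes hold silent Hox genes in a repressed state and MLL (trithorax) complexes maintain the expressed ones, and Hox proteins bind DNA together with cofactors of the TALE homeodomain class, such as Pbx and Meis.

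RNA was sequenced from C3H/10T1/2, a line of mesenchymal progenitor cells that comes from mouse embryo, that expressed histone H2B, in its wild-type form (WT) or with a single glutamate replaced. The 6 substitutions are E71K, E71Q, E76K, E76Q, E113K and E113Q, in which K is lysine and Q is glutamine. Each of the 7 groups has 3 libraries, 21 in all, which the series' design text calls independent biological replicates. The labels do not name a vector or promoter for the H2B or separate clones, so differences between lines and effects of a substitution cannot be told apart. All groups were grown in the same medium, and every group is compared with the same 3 WT libraries. Values are TPM, a transcript abundance corrected for transcript length that sums to a fixed total in each library, so levels can be set beside each other between genes, while the sequencing depth is unknown and no counting error can be given. A value of 0 is therefore given only as listed at 0. Among 10 genes that every cell uses, 0 values were at 0 and the lowest was 16.3 TPM.

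The cells carried the markers of their label. Of 12 mesenchymal markers, 11 or 12 had a mean of at least 1 TPM in each group, the exception in E71K, E71Q and E76Q being Thy1, with means below 1 TPM. Of 8 epithelial markers, the sum ran from 81.2 to 488 TPM in E71K and from 41.5 to 365 TPM in E71Q, against 11.5 to 14.5 TPM in WT. In the E71 groups nearly all of it was Krt14, and in WT most of it was Cdh1 and Krt8. Of the same 8, Epcam and Cldn4 were at or near 0 in all 21 libraries. Cdh1 averaged 6.19 TPM in WT, 3.08 TPM in E71K and 3.01 TPM in E113Q, and stayed below 1 TPM on average in the other groups. The summed neural, skeletal muscle, pluripotent, endothelial and haematopoietic markers stayed at or below 13.2, 8.59, 3.77, 3.71 and 2.15 TPM, against at least 9790 TPM for the mesenchymal markers. E71K replicate 3, E71Q replicate 1, E76K replicate 3 and E113Q replicate 3 stood apart from the others of their groups on the main axis of variation within groups, and the locus Mir6236 took 30.6% of all TPM in E71K replicate 2 and 21.2% in E71Q replicate 1, against 2.19% to 15% elsewhere. Calls on single Hox genes, against WT and between lysine and glutamine, that change without the 4 libraries are given with each result, and the part of these differences and of the epithelial genes and Thy1 in the Hox values was not tested. These 4 libraries were picked for standing apart in these same data, so leaving them out lowers the spread and can make p-values too small. Leaving them out also takes 1 library from each of 4 groups.

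Promoter windows were at hand for 22 of the 39 genes, on build GRCm38.p6 (mm10, the build named in the submitters' processing notes). The window of Hoxc4 lies inside the annotated span of that gene. A single annotated start was used for each gene, and which start these cells use was not tested. The 250 bases before the start of 4 Hoxa genes are shown because these neighbours in a single cluster differ most in level, from the most abundant Hox gene of these cells to a gene listed at 0 throughout. All 4 lie on the minus strand and are written 5' to 3', with each CG dinucleotide, the site of DNA methylation in mammals, in capitals. Hoxa2 is at chr6:52164832-52165081, Hoxa7 at chr6:52218574-52218823, Hoxa9 at chr6:52227371-52227620 and Hoxa11 at chr6:52245811-52246060.
Hoxa2: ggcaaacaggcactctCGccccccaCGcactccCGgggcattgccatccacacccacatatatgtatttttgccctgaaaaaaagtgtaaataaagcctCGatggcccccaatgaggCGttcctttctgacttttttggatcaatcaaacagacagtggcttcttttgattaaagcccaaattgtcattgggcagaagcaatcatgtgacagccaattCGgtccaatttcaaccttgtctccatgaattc
Hoxa7: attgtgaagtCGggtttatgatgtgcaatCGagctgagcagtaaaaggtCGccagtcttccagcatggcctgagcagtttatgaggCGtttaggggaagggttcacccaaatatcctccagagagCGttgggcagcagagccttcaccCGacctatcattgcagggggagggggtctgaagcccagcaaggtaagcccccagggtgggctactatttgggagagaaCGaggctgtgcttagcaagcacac
Hoxa9: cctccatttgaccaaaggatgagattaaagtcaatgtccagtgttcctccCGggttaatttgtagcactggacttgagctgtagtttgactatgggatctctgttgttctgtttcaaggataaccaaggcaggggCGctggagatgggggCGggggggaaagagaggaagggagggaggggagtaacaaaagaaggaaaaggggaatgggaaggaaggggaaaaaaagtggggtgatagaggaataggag
Hoxa11: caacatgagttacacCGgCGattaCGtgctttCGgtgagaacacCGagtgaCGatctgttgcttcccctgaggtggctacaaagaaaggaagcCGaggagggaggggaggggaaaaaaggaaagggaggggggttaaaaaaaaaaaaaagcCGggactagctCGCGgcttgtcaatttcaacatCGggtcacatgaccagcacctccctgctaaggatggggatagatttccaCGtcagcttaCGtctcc
Over the 21 libraries these genes had means of 25.9, 45.5, 0.331 and 0 TPM, with 6, 7, 3 and 13 CG in the window. The median over 27025 promoter windows of the same length was 6 CG, and 91.7% of windows held at least 1. The CG number did not separate expressed from unexpressed members: the 6 matched genes that were tested had 6 to 28, and the 16 others had 2 to 35, with medians of 12.5 and 12. The letters TGATNNAT, searched on both strands as a joint Hox and Pbx motif, were found in 7.89% of all windows and in 3 of the 22 Hox windows. In Hoxa2 the match was TGATTGAT on the opposite strand, 104 to 111 bases before the start, where the printed strand reads atcaatca. The other matches were in Hoxb1 and Hoxb8, whose values stayed at or below 0.225 and 0.345 TPM.

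Of the 39 members, 12 had an average of 1 TPM or more over all libraries and were tested, among them Hoxa2 to Hoxa7, Hoxa10, Hoxb6, Hoxc6, Hoxc9 and Hoxc13. Hoxc13 passed only through E76K and Hoxb6 only through WT, with means of 0.554 and 0.949 TPM over the other groups. A further 5 members, Hoxb3, Hoxb9, Hoxc10, Hoxc11 and Hoxc12, reached a mean of 1 TPM in at least 1 group and are described by their values. The other 22 had no group mean of 1 TPM, and Hoxa11, Hoxd1 and Hoxd8 were listed at 0 in all 21 libraries. Tests were made with limma on log2(TPM + 1) over all 12192 genes that averaged 1 TPM or more, adjusted by the Benjamini-Hochberg method, and a gene is said to have risen or fallen where the adjusted p was below 0.05. Fold changes on this scale understate the change of low genes.

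The clusters differed in their levels and in how these varied among the 7 groups. The Hoxa cluster (chromosome 6, 11 genes) was expressed in every group and supplied 87.4% of all Hox TPM in WT. The Hoxb cluster (chr11:96194316-96368254, 10 genes) was a minor share that was largest in WT, the Hoxc cluster (chr15:102921131-103036856, 9 genes) was nearly silent in WT and had its high values in E76K and E76Q, and the Hoxd cluster (chr2:74668225-74765142, 9 genes) never exceeded 0.233 TPM for any gene. By the limma F test, 11 of the 12 tested members differed among the 7 groups, where 77.1% of all tested genes did.

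**Figure D1:**
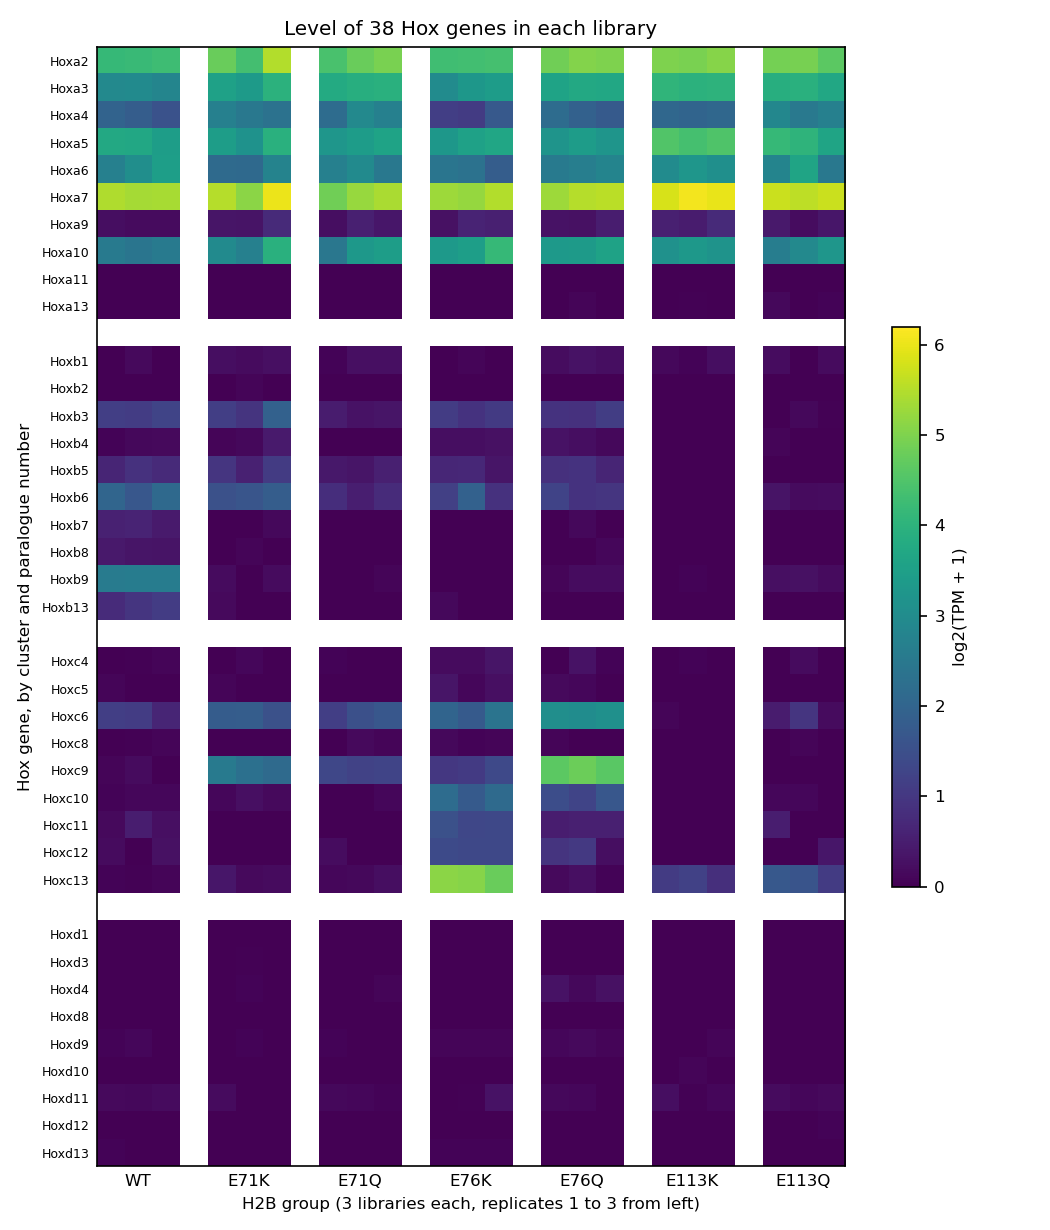
Level of 38 Hox genes (rows, by cluster and paralogue number) in each of the 21 libraries (columns, 3 per H2B group), as log2(TPM + 1) in colour. Hoxa2 to Hoxa7 and Hoxa10 are filled in every column, Hoxb9 mainly in the WT columns, Hoxc13 mainly in E76K and Hoxc9 mainly in E76Q, and the Hoxd rows are dark.

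Summed over the cluster, Hoxa reached 93.2 ± 0.868 TPM in WT (SD, n = 3) and 150 ± 5.63 TPM in E113K. Hoxb summed to 11.6 ± 0.661 TPM in WT and to 0.123 ± 0.0483 TPM in E113K, where it was 0.0807% of all Hox TPM. Hoxc summed to 1.58 ± 0.338 TPM in WT, 42.4 ± 3.03 TPM in E76K and 35.5 ± 1.79 TPM in E76Q. The Hoxc share of Hox TPM was 1.49% in WT, 29.7% in E76K and 23.1% in E76Q. In E113K the Hoxa cluster made up 99.1% of all Hox TPM, and in E113Q 97.5%.

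**Figure D2:**
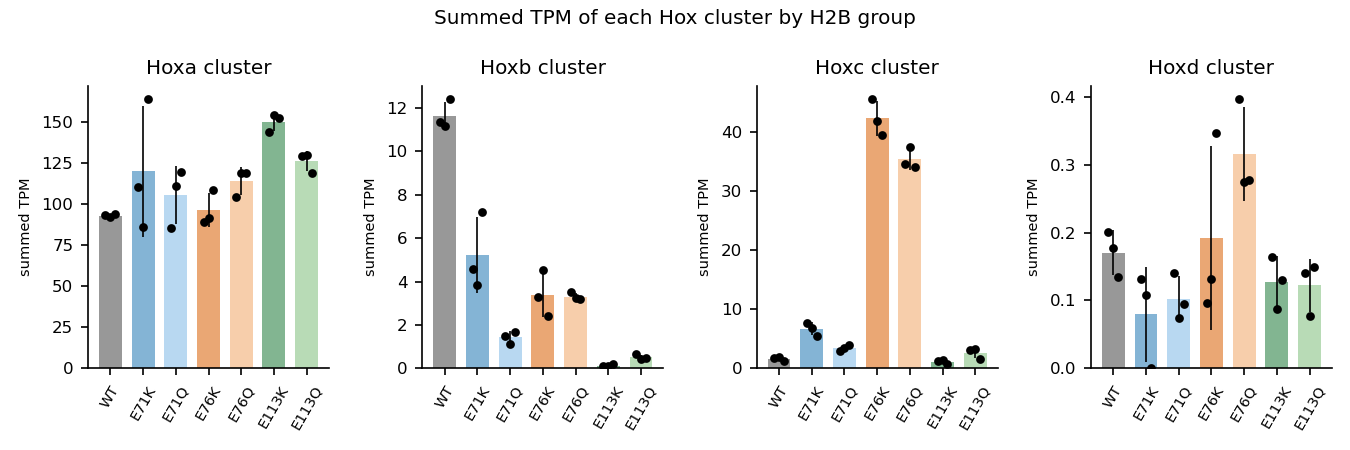
Summed TPM of the 4 Hox clusters by H2B group, with separate axes. Bars are means of 3 libraries, lines are SD and points are libraries. Hoxb is highest in WT (11.6 TPM) and close to 0 in E113K, and Hoxc is highest in E76K and E76Q (42.4 and 35.5 TPM).

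Against WT, 5 of the 12 tested Hox genes rose and 0 fell in E71K, where 26.7% of all tested genes were called (12.5% higher and 14.2% lower). In E71Q 4 rose and 1 fell, beside 44.2% of all tested genes called (20.7% higher and 23.5% lower). In E76K 4 rose and 2 fell (33.2% called, 23.5% higher and 9.67% lower), and in E76Q 5 rose and 1 fell (44.3% called, 22% higher and 22.4% lower). In E113K 6 rose and 2 fell, beside 51% of all tested genes called (30.3% higher and 20.7% lower), and in E113Q 4 rose and 1 fell, beside 30.6% (17.9% higher and 12.7% lower). With 12 members, 1 gene more or less moves such a share by several percent, and no excess over all genes is read from these counts. The median log2 fold change of the tested Hox genes was 0.52 in E71K, 0.38 in E71Q, 0.09 in E76K, 0.17 in E76Q, 0.42 in E113K and 0.27 in E113Q. The median of all tested genes was between 0.00 and 0.06 in 4 of these comparisons, 0.16 in E76K and 0.13 in E113K. It fell to at most 0.02 after median-ratio rescaling. Rescaling reversed the direction of no Hox gene called in either fit, and sign changes between uncalled values were not counted.

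**Figure D3:**
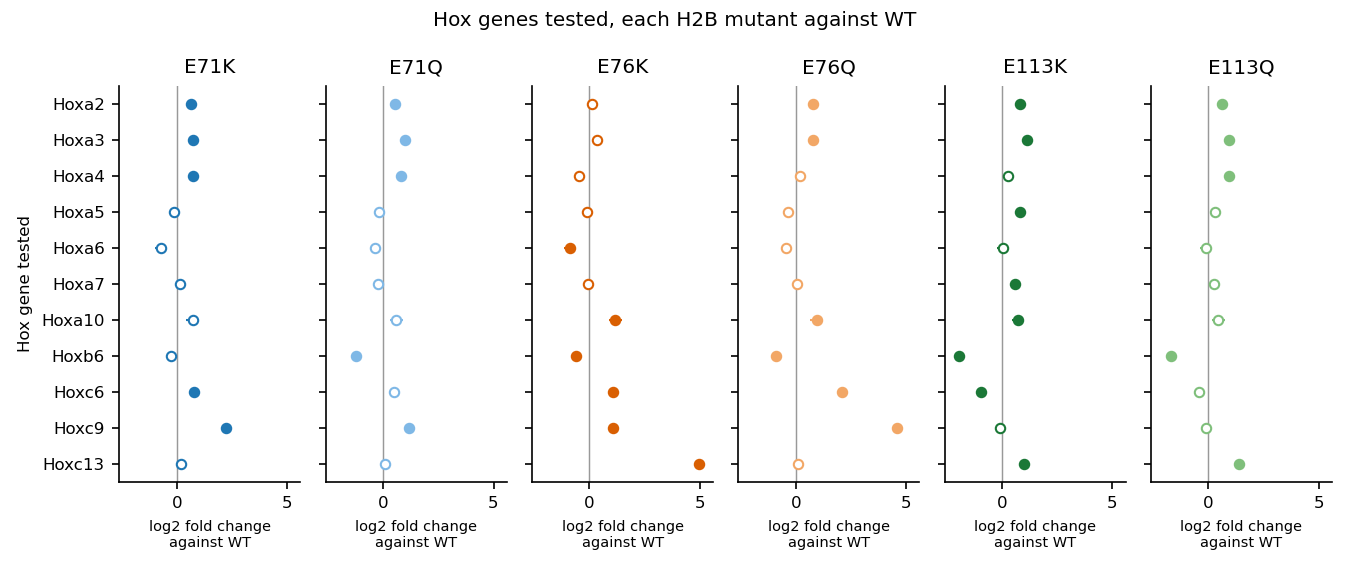
Log2 fold change on the log2(TPM + 1) scale of 11 tested Hox genes in each mutant against WT. Points are limma estimates from 3 libraries per group, lines are SE (hidden by the point where short), and filled points have an adjusted p below 0.05. The points farthest to the right are Hoxc13 in E76K (4.94) and Hoxc9 in E76Q (4.60).

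In the Hoxa cluster, the genes from Hoxa2 to Hoxa7 and Hoxa10 were expressed in all 21 libraries. Hoxa7, a gene of thoracic identity, was the most abundant in every group, with means from 35.5 TPM in E71Q to 61.8 TPM in E113K. Hoxa9, which lies between Hoxa7 and Hoxa10, had values from 0.132 to 0.68 TPM in the 21 libraries. Hoxa13, which patterns the hand and foot, was listed at 0 in 17 libraries and reached 0.0975 TPM at most. Along the cluster the expressed stretch ended at Hoxa7, was interrupted at Hoxa9 and resumed at Hoxa10.

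Hoxa2 and Hoxa3, which pattern the hindbrain and the branchial arches, had their lowest group means in WT and rose in 5 of the 6 mutants. Hoxa3 (chr6:52169059-52213067) was at 6.50, 6.85 and 6.01 TPM in WT. It was at 15.7, 14.8 and 15.1 TPM in E113K and at 13.8, 14.2 and 12.2 TPM in E113Q, at 12.7, 13.7 and 14.3 TPM in E71Q, at 11.1, 12.4 and 12.2 TPM in E76Q and at 10.7, 9.44 and 14.9 TPM in E71K. All 15 of these libraries were above all 3 of WT. In E76K its values were 6.92, 8.81 and 9.73 TPM, which also lay above WT and did not pass the test (log2 fold change 0.34 ± 0.14 SE, adjusted p = 0.0655 by limma). Hoxa3 was called there without Mir6236 (adjusted p = 0.0297) and without E76K replicate 1 (adjusted p = 0.0234). The log2 fold change was 1.12 ± 0.14 in E113K (adjusted p = 3.99e-06), 0.97 in E71Q, 0.95 in E113Q, 0.79 in E76Q and 0.75 in E71K, all with SE 0.14. These 5 calls were kept with any single library left out, and the E71K call was lost in the fit of only the 6 libraries compared (adjusted p = 0.0711). The annotated span of Hoxa3 contains Hoxa4, Hoxa5 and Hoxa6 on the same strand, and how reads there were divided among them is not stated.

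Hoxa2 (chr6:52162417-52164831) was at 16.9, 17.5 and 18.3 TPM in WT. In E113K it was at 30.8, 30.0 and 32.6 TPM and in E76Q at 28.0, 32.2 and 31.2 TPM. In these groups it rose by a log2 fold change of 0.79 and 0.76, each ± 0.20 SE (adjusted p = 0.00301 and 0.00479 by limma), and the calls were kept with any single library left out. In E71K its libraries were spread widely, at 26.6, 19.3 and 43.8 TPM, and in E71Q they were at 20.5, 26.6 and 30.2 TPM. The rise was called in E71K at 0.66 (adjusted p = 0.0183), was lost without WT replicate 1 (adjusted p = 0.0597) or E71K replicate 3 (adjusted p = 0.0829) and in the fit of the 6 libraries (adjusted p = 0.239), and was 0.35 (adjusted p = 0.0203) without the 4 libraries set apart. The calls in E71Q (0.51, adjusted p = 0.0426) and E113Q (0.61, adjusted p = 0.0261) were each lost in 5 of 6 fits that left out 1 library, with adjusted p of 0.0738 to 0.166 and 0.0543 to 0.0786. Only E71Q replicate 1 and E113Q replicate 3, the libraries set apart, could be left out of these with the call kept. The E71Q call was also lost with a pseudocount of 5 (adjusted p = 0.0501) and with no filter (adjusted p = 0.06). In E76K the values of 18.8, 19.0 and 19.6 TPM lay just above WT (log2 fold change 0.12, adjusted p = 0.675).

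Hoxa4, a gene of neck vertebra identity, had another order of groups. It was at 2.90, 2.52 and 1.93 TPM in WT, at 6.28, 4.66 and 5.51 TPM in E113Q, at 3.54, 6.53 and 5.47 TPM in E71Q and at 5.46, 4.57 and 4.05 TPM in E71K. These 9 libraries lay above all of WT, and the gene rose in all 3 groups, by a log2 fold change of 0.91, 0.82 and 0.72, each ± 0.20 SE (adjusted p = 0.00233, 0.00343 and 0.0121 by limma). Without WT replicate 3 the E71K call was lost (adjusted p = 0.0654). In E76K its values were 1.22, 1.10 and 2.34 TPM, below the WT range in 2 libraries (log2 fold change -0.46, adjusted p = 0.0908), and without the libraries set apart the change was -0.67 (adjusted p = 0.00359). The change was also called with median-ratio rescaling (adjusted p = 0.0277). In E76Q and E113K the means were 2.92 and 3.15 TPM and no change was called.

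Hoxa5, which patterns the neck and upper thoracic skeleton and the lung, was at 12.3, 12.1 and 10.0 TPM in WT and at 22.1, 19.8 and 21.4 TPM in E113K. It rose there by 0.83 ± 0.18 SE (adjusted p = 0.000877 by limma) and was not called in the other 5 mutants, whose means were 8.83 to 14.4 TPM. Without the libraries set apart it was also called in E113Q (0.45, adjusted p = 0.00873), E71K (-0.33, adjusted p = 0.0424) and E76Q (-0.34, adjusted p = 0.0141). The E76Q change was also called with median-ratio rescaling and in the fit of the 6 libraries (adjusted p of at most 0.032). Hoxa7 was at 43.0, 40.2 and 40.9 TPM in WT and at 55.7, 67.4 and 62.4 TPM in E113K, where it rose by 0.56 ± 0.18 SE (adjusted p = 0.013). That call was lost without E113K replicate 2 (adjusted p = 0.0528). Hoxa6, a thoracic gene, was at 5.49, 7.32 and 10.2 TPM in WT and at 4.34, 4.02 and 2.56 TPM in E76K, where it fell by 0.89 on the log2 scale (adjusted p = 0.0164). Without WT replicate 3 or E76K replicate 3 that call was lost (adjusted p = 0.0889 and 0.091). In E71K the change of -0.73 was not called (adjusted p = 0.0519), and without the libraries set apart it was -0.94 (adjusted p = 0.00763). That change was also called with a pseudocount of 0.1 and with median-ratio rescaling (adjusted p of at most 0.0488).

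Hoxa10, a gene of lumbar vertebrae, upper limb bones and uterus, had its lowest group mean in WT, with values of 4.74, 4.30 and 4.74 TPM. In E76K it was at 9.21, 10.1 and 16.7 TPM and in E76Q at 9.11, 9.46 and 10.9 TPM, and it rose by 1.18 and 0.95, each ± 0.29 SE (adjusted p = 0.00485 and 0.0132 by limma). In E113K it was at 7.77, 8.84 and 8.11 TPM, and the call there (0.72, adjusted p = 0.0452) was lost in all 6 fits with 1 library left out, with adjusted p of 0.0744 to 0.111, and with a pseudocount of 5 (0.0682) or no filter (0.0719). In E71K its values were 6.85, 5.50 and 14.2 TPM and in E71Q 4.54, 8.85 and 9.99 TPM, with no call. The high E71K value and the low E71Q value are both of libraries set apart. Without those 4 libraries the gene rose by 0.35 in E71K (adjusted p = 0.0262) and by 0.90 in E71Q (adjusted p = 1.92e-05). The SE in that fit was 0.12, against 0.29 with all libraries. Hoxa10 was also called in both groups with median-ratio rescaling, with the replicate number as a block and without Mir6236. In these fits the adjusted p was at most 0.0262 in E71K and 0.0424 in E71Q. E71K replicate 3 was the highest of its group for 6 of the 7 Hoxa genes described here, the exception being Hoxa4.

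**Figure D4:**
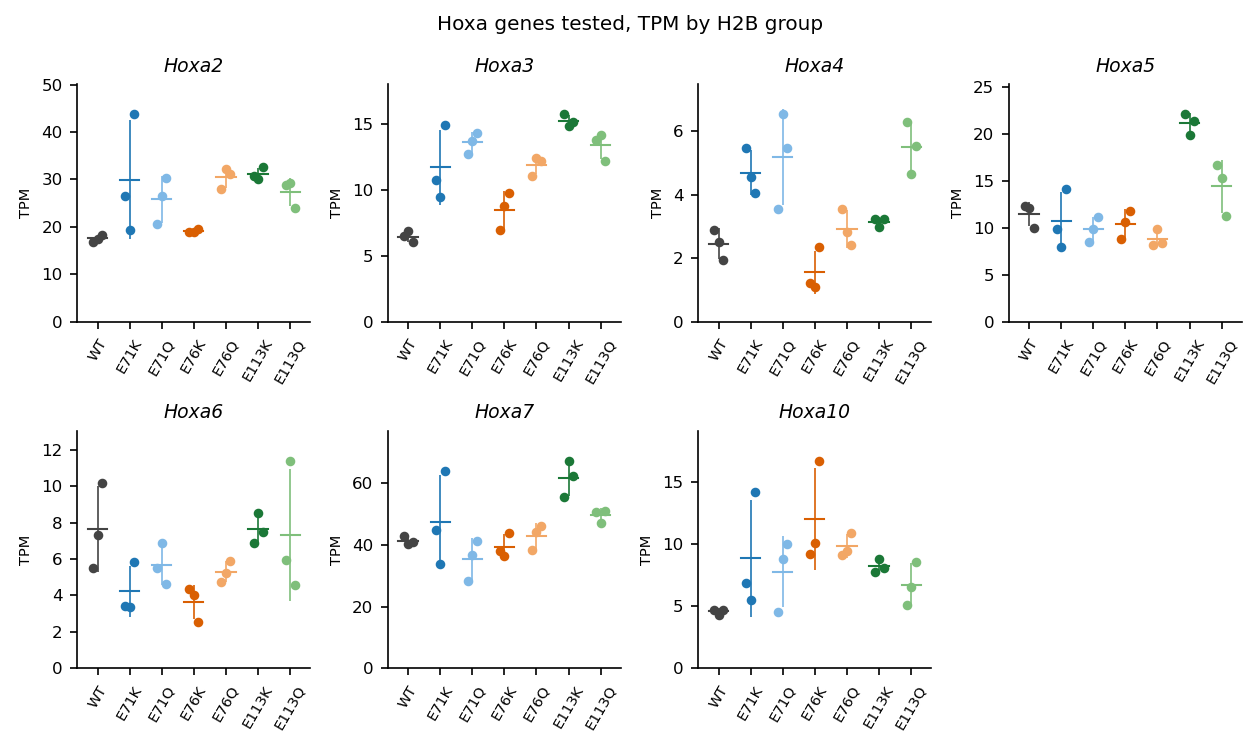
TPM of 7 tested Hoxa genes in each library, by H2B group. Points are libraries, horizontal lines are means and vertical lines SD (n = 3), and each panel has its own axis from 0. Hoxa2 and Hoxa3 are lowest in WT (means 17.6 and 6.46 TPM), Hoxa5 and Hoxa7 are highest in E113K (21.1 and 61.8 TPM), and a single E71K library stands above its mates in Hoxa2, Hoxa7 and Hoxa10.

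In the Hoxb cluster, the 5' genes were found mainly in WT cells. Hoxb9, a gene of thoracic vertebrae and mammary gland (chr11:96271330-96276595), was at 4.94, 5.03 and 5.08 TPM in WT. In the 18 mutant libraries it ran from 0 to 0.207 TPM, and all 18 lay below WT. Hoxb13, a gene of the tail and prostate, was at 0.697, 0.948 and 1.16 TPM in WT and was listed at 0 in 16 mutant libraries, with 0.122 TPM in the highest. Hoxb7 and Hoxb8 were between 0.259 and 0.527 TPM in WT and at most 0.101 TPM in any mutant library. Together these 4 genes summed to 6.71 ± 0.21 TPM in WT and to 0.186 ± 0.104 TPM in E76Q, the mutant with the largest sum. They fell below the filter on level, so the fit with no filter, over 20157 genes, was read for them. There Hoxb9 was lower in every mutant by 2.35 to 2.59 on the log2(TPM + 1) scale, with an adjusted p of at most 2.37e-15 by limma. Hoxb7, Hoxb8 and Hoxb13 were called lower in every mutant as well. Of the 24 members below the filter that had a value above 0, this fit called 5 lower in E71K, 7 in E71Q, 4 in E76K, 4 in E76Q, 7 in E113K and 6 in E113Q. Of all genes in that fit, 12.4%, 18.4%, 8.8%, 17.2%, 17% and 11.4% were called lower in those comparisons. Higher calls among the 24 members numbered 0, 0, 6, 4, 1 and 0 in the same order. The shares of all genes called higher in that fit were not recorded. Groups whose libraries are all at 0 have no spread of their own in such a fit and take it from the other groups.

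The middle of the cluster, from Hoxb3 to Hoxb6, was lowest in the E113 mutants and E71Q. The 4 genes, which act in the hindbrain, neck and thorax, summed to 4.90 ± 0.632 TPM in WT and to 4.85 ± 1.69 TPM in E71K, with 3.36 ± 1.03 TPM in E76K and 2.94 ± 0.302 TPM in E76Q. The sum was 1.26 ± 0.29 TPM in E71Q and 0.238 ± 0.0625 TPM in E113Q. In E113K all 12 values were listed at 0. Hoxb6, the tested member (chr11:96292814-96301569), was at 3.07, 2.19 and 3.34 TPM in WT, at 0.745, 0.426 and 0.686 TPM in E71Q and at 1.37, 0.862 and 0.954 TPM in E76Q. In E113Q it was at 0.25, 0.129 and 0.16 TPM. None of these libraries reached the WT range. Hoxb6 fell by 1.94 in E113K, 1.70 in E113Q, 1.25 in E71Q and 0.90 in E76Q on the log2(TPM + 1) scale, each with SE 0.22 (adjusted p = 1.65e-06, 1.14e-05, 0.000192 and 0.0029 by limma), and these calls were kept with any single library left out. Hoxb6 passed the filter on level only through its WT values, and the same calls were kept in the fit with no filter. In E71K it was at 1.93, 2.09 and 2.54 TPM and was not called (adjusted p = 0.394). In E76K its values of 1.28, 2.81 and 0.858 TPM overlapped WT. The call there (-0.60, adjusted p = 0.0413) was lost in 4 of 6 fits with 1 library left out (adjusted p of 0.115 to 0.211), without the libraries set apart (-0.38, adjusted p = 0.142) and with the replicate number as a block (adjusted p = 0.0537). It was also lost with a pseudocount of 0.1 and in the fit of the 6 libraries (adjusted p = 0.143). Hoxb3 was at 1.23, 1.13 and 1.42 TPM in WT, at 0.377, 0.224 and 0.28 TPM in E71Q and at most 0.0883 TPM in any E113 library. Hoxb1 and Hoxb2, at the 3' end, stayed at or below 0.225 and 0.058 TPM in all libraries.

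The Hoxc cluster held the largest changes among the tested Hox genes against WT, with Hoxc13 highest in E76K and Hoxc9 highest in E76Q. Hoxc13, at the 5' end of the cluster and known for its role in hair and nails (chr15:102921131-102928814), was at 34.0, 32.9 and 26.8 TPM in E76K. It was at 0.0377, 0.0308 and 0.0566 TPM in WT and at 0.122, 0.188 and 0.0468 TPM in E76Q. In E113Q it was at 2.27, 2.03 and 1.10 TPM and in E113K at 1.11, 1.29 and 0.797 TPM, all above WT. Hoxc13 rose by 4.94 in E76K, 1.40 in E113Q and 0.98 in E113K on the log2(TPM + 1) scale, each ± 0.17 SE (adjusted p = 3.64e-13, 6.46e-06 and 0.000158 by limma). It passed the filter on level only through its high E76K values, and these calls were kept in the fit with no filter. In E71K, E71Q and E76Q the group means were 0.177, 0.118 and 0.119 TPM and no change was called.

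Hoxc9, a gene of thoracic vertebrae and of motor neuron identity in the thoracic spinal cord (chr15:102977032-102984444), was at 24.0, 26.98 and 23.7 TPM in E76Q. It was at 0.0561, 0.137 and 0 TPM in WT and listed at 0 in all 6 E113 libraries. Between these lay E71K with 4.84, 3.86 and 3.40 TPM, E71Q with 1.51, 1.32 and 1.42 TPM and E76K with 0.998, 1.09 and 1.57 TPM. E71K did not overlap with E71Q or E76K, whereas E71Q and E76K overlapped. Hoxc9 rose by 4.60 in E76Q, 2.23 in E71K, 1.18 in E71Q and 1.05 in E76K, each ± 0.14 SE (adjusted p = 7.54e-14, 9.73e-10, 2.74e-06 and 1.48e-05 by limma). These 4 calls were kept with any single library left out.

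Hoxc6, another thoracic gene (chr15:102998226-103011882), was highest in E76Q as well. It was at 7.33, 7.12 and 7.59 TPM in E76Q, at 2.98, 2.39 and 4.26 TPM in E76K, at 2.50, 2.56 and 1.89 TPM in E71K and at 1.20, 1.15 and 0.569 TPM in WT. In E71Q it was at 1.23, 1.87 and 2.19 TPM, in E113Q at 0.399, 0.929 and 0.132 TPM, and in E113K at 0.0662, 0 and 0 TPM. It rose in E76Q (2.10), E76K (1.09) and E71K (0.76) and fell in E113K by 0.93, each ± 0.21 SE (adjusted p = 5.19e-07, 0.000753, 0.0118 and 0.00148 by limma). The E71K call was lost without WT replicate 3 (adjusted p = 0.0696). In E71Q the change of 0.49 was not called (adjusted p = 0.0706), and without the libraries set apart it was 0.63 (adjusted p = 0.00428). That change was also called without Mir6236 (adjusted p = 0.0358). Hoxc8, which lies between Hoxc6 and Hoxc9, stayed at or below 0.108 TPM in all 21 libraries, and Hoxc4 and Hoxc5 at or below 0.266 and 0.276 TPM.

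The genes from Hoxc10 to Hoxc12, which act in the lumbar and hindlimb region and the tail, had their highest values in E76K and the next highest in E76Q. Hoxc10 was at 3.58, 2.35 and 3.39 TPM in E76K, at 1.77, 1.42 and 2.21 TPM in E76Q and at or below 0.192 TPM in the other 15 libraries. Hoxc11 was at 1.91, 1.51 and 1.55 TPM in E76K and at 0.402, 0.463 and 0.461 TPM in E76Q. Hoxc12 was at 1.65, 1.52 and 1.55 TPM in E76K and at 0.9, 1.04 and 0.172 TPM in E76Q. For these 3 genes the E76K libraries lay above all 18 others. In the fit with no filter all 3 were called higher in E76K than in WT, by 1.93, 1.11 and 1.21 (adjusted p of at most 1.36e-05 by limma). Hoxc10 and Hoxc12 were called higher in E76Q as well, by 1.38 and 0.57 (adjusted p = 2.66e-08 and 0.00797). The shares of all genes called higher in that fit were not recorded. In E113K, which also held Hoxc13, these 3 genes were listed at 0 in all libraries. In E113Q they were at 0 in 5 of 9 values, with Hoxc11 at 0.402 TPM and Hoxc12 at 0.29 TPM in a single library each. The stretch from Hoxc10 to Hoxc13 summed to 37.5 ± 3.98 TPM in E76K, 3.07 ± 0.154 TPM in E76Q and 0.463 ± 0.0984 TPM in WT.

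**Figure D5:**
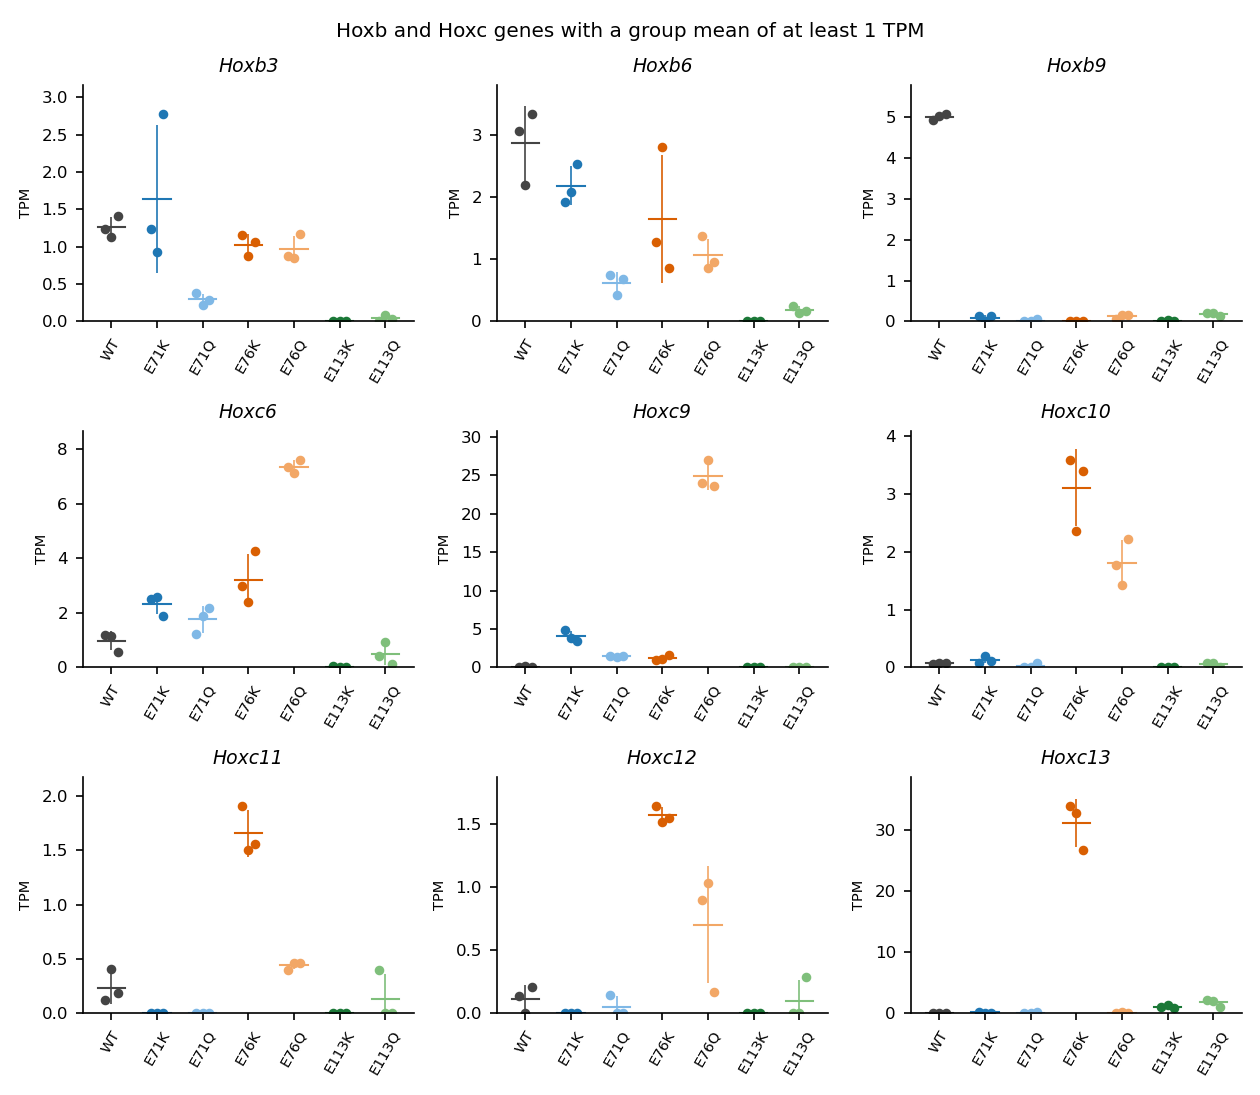
TPM of the Hoxb and Hoxc genes that averaged 1 TPM or more in at least 1 group, in each library by H2B group. Points are libraries, horizontal lines are means and vertical lines SD (n = 3), and each panel has its own axis from 0. Hoxb9 is near 5 TPM in WT and close to 0 elsewhere, Hoxc9 is highest in E76Q (24.9 TPM) and Hoxc13 in E76K (31.2 TPM).

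In the Hoxd cluster 0 of 9 genes could be tested. Hoxd11 had the highest single value, 0.233 TPM in E76K replicate 3. Hoxd4, a gene of neck vertebrae, was above 0 in all 3 E76Q libraries, at 0.232, 0.089 and 0.221 TPM, and at or below 0.0531 TPM in the other 18. The noncoding transcript Hoxd3os1 from the same region was at 1.47, 2.07 and 1.69 TPM in E76Q and at or below 0.5 TPM elsewhere. Hoxd13, which patterns the digits, reached 0.0515 TPM at most.

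Lysine and glutamine at the same residue were compared directly, which needs no WT library. E76K and E76Q differed in 6 of 12 tested Hox genes, with 1 higher in E76K and 5 lower, beside 31.9% of all tested genes (23.4% higher and 8.46% lower). Hoxc13, which passed the filter only through E76K, was higher there by 4.84 ± 0.17 SE (adjusted p = 5.98e-13 by limma). Hoxc9 was lower by 3.55 ± 0.14 SE (log2 fold change -3.55, adjusted p = 2.25e-12) and Hoxc6 by 1.01 ± 0.21 SE (-1.01, adjusted p = 0.0014), and these 3 calls were kept with any single library left out. Hoxa2 (-0.64, adjusted p = 0.0193), Hoxa3 (-0.45, adjusted p = 0.0176) and Hoxa4 (-0.64, adjusted p = 0.0223) were lower in E76K as well, and their calls were lost in 4, 3 and 3 of 6 fits with 1 library left out (adjusted p of 0.0538 to 0.109). The Hoxa4 call was also lost with a pseudocount of 5 (adjusted p = 0.0532) and in the fit of the 6 libraries (adjusted p = 0.0586). Without the libraries set apart Hoxb6 was also called, higher in E76K (0.52, adjusted p = 0.0457). The median of all tested genes in this comparison was 0.14 and that of the tested Hox genes was -0.29.

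E71K and E71Q differed in 2 of 12 tested Hox genes, both higher in E71K, beside 25.1% of all tested genes (12.8% higher and 12.3% lower). Hoxb6 was higher in E71K by 0.98 ± 0.22 SE (adjusted p = 0.00397 by limma) and Hoxc9 by 1.05 ± 0.14 SE (adjusted p = 4.04e-05), and both calls were kept with any single library left out. Without the 4 libraries set apart 6541 of the 12192 tested genes were called, against 3060 with all libraries. Among them were 5 members, with Hoxa2 (-0.31, adjusted p = 0.0441), Hoxa3 (-0.44, adjusted p = 0.00294) and Hoxa10 (-0.54, adjusted p = 0.00271) lower in E71K. With all libraries those differences were 0.15, -0.22 and 0.12, so Hoxa2 and Hoxa10 changed direction. E113K and E113Q differed in 2 of 12, beside 28% of all tested genes (14.6% higher and 13.3% lower). Hoxa4 was lower in E113K (-0.64, adjusted p = 0.0258) and Hoxa5 higher (0.54, adjusted p = 0.0295). Both calls were lost without any single E113K library or without E113Q replicate 3, and the Hoxa4 call also without E113Q replicate 1 (adjusted p of 0.0528 to 0.132). Without the libraries set apart 5486 of all tested genes were called, against 3408 with all libraries. Among them were 6 members. Hoxa10 (0.44, adjusted p = 0.00732) and Hoxa7 (0.33, adjusted p = 0.0398) were also higher in E113K, and Hoxc13 (-0.61, adjusted p = 0.00122) and Hoxc6 (-0.69, adjusted p = 0.00383) also lower. The lysine minus glutamine difference itself differed between E76 and E71 for 3 of 12 tested Hox genes (21.7% of all tested genes), between E113 and E71 for 2 (32.7%) and between E113 and E76 for 4 (29.5%). Without the libraries set apart these counts were 5, 8 and 7, and the matching shares of all tested genes were not recorded.

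Noncoding RNAs of the clusters were counted from a list of 17, of which 15 were in the table and 4 passed the filter. Of these, Mir196a-1 passed through 1 library alone, E76K replicate 3 at 25.3 TPM, and was listed at 0 in the other 20. In E76Q, E113K and E113Q 2 of the 4 rose, in E71Q 1, and in E71K and E76K 0, beside 22%, 30.3%, 17.9%, 20.7%, 12.5% and 23.5% of all tested genes higher. Hotairm1, a noncoding transcript of the Hoxa cluster, was at 114, 77.2 and 90.8 TPM in WT and at 258, 283 and 174 TPM in E76Q. It rose by 1.32 in E76Q, 1.28 in E71Q, 1.05 in E113K and 1.03 in E113Q (adjusted p = 0.00117, 0.00144, 0.00501 and 0.0104 by limma). Hoxaas2, an antisense transcript of the same cluster, rose by 1.38, 1.09 and 0.94 in E76Q, E113K and E113Q (adjusted p = 0.000249, 0.00153 and 0.0079). Whether counting used strand is not stated, so antisense transcripts and their partners cannot be told apart. In values only, Hotair, transcribed from between Hoxc11 and Hoxc12, was highest in E76K, at 1.88, 1.58 and 3.97 TPM, where those genes were highest too, and at or below 0.783 TPM elsewhere. Hoxb5os was listed at 0 in all 6 E113 libraries and in 2 of 3 in E71Q.

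Genes just outside the clusters moved in both directions. Of 12 tested flanking genes, 3 rose and 3 fell in E71K, 5 and 2 in E71Q, 3 and 1 in E76K, 5 and 2 in E76Q, 3 and 4 in E113K and 3 and 3 in E113Q. Over all tested genes, 26.7%, 44.2%, 33.2%, 44.3%, 51% and 30.6% were called in these comparisons. The flanking genes' median log2 fold change ran from -0.16 in E113Q to 0.35 in E76Q. Calcoco1, beyond the Hoxc cluster, rose in 5 mutants, by 1.06 in E113Q to 1.74 in E113K. Evx1 and Evx2, homeobox genes at the ends of Hoxa and Hoxd, were at or below 0.0438 TPM throughout. Ttll6, a flanking gene below the filter, was at 1.236 ± 0.2314 TPM in WT and at or below 0.239 TPM in every mutant library. Hoxb9 and Hoxb13 were likewise higher in WT than in every mutant library, and a shared cause was not tested. Skap1 and Calcoco2, also below the filter, had WT values that overlapped those of mutant libraries.

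The partners and regulators of Hox genes moved in both directions, and their counts are to be read beside the shares of all tested genes given above. Of 7 tested TALE cofactors, which bind DNA with Hox proteins, 0 rose and 3 fell in E71K, 0 and 4 in E71Q, 1 and 2 in E76K, 1 and 3 in E76Q, 2 and 2 in E113K and 1 and 3 in E113Q, with medians from -0.68 in E71Q to 0.40 in E113K. Meis1 fell in 5 mutants, from a WT mean of 25.0 ± 1.61 TPM to means of 10.0 to 14.5 TPM. It was at 19.5 ± 0.883 TPM in E113K. Of 11 tested PRC2 genes, the complex that writes the H3K27 methyl mark, 0 rose and 2 fell in E71K, 1 and 5 in E71Q, 1 and 2 in E76K, 1 and 6 in E76Q, 3 and 5 in E113K and 1 and 2 in E113Q. Phf19, a subunit that recruits PRC2, had a WT mean of 10.9 ± 0.406 TPM and fell in 5 mutants, to 0.835 ± 0.159 TPM in E113K. Of the catalytic subunits, Ezh2 fell in E113K by 1.26 and in E71Q by 0.89 (adjusted p = 0.000436 and 0.00698 by limma). Ezh1 rose in E71Q by 0.60, in E76K by 0.86, in E113K by 1.02 and in E113Q by 0.88 (adjusted p of at most 0.0111). The median log2 fold change over the PRC2 genes was below 0 in all 6 mutants, from -0.42 in E76Q to -0.06 in E76K.

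Of 19 tested PRC1 genes, 3 rose and 3 fell in E71K, 1 and 7 in E71Q, 4 and 2 in E76K, 5 and 4 in E76Q, 6 and 3 in E113K and 3 and 3 in E113Q, with medians from -0.22 in E71Q to 0.17 in E113K. Pcgf5 fell in all 6 mutants, by 1.12 in E71K to 1.76 in E113Q. Cbx2, a reader of the H3K27 mark that represses Hox genes, fell in every mutant but E71K, and Cbx7 rose in every mutant but E76Q. Of 12 tested genes of MLL complexes and H3K27 demethylases, 1 rose and 2 fell in E71K, 0 and 4 in E71Q, 1 and 2 in E76K, 2 and 4 in E76Q, 3 and 2 in E113K and 0 and 3 in E113Q, with medians from -0.08 in E71Q to 0.26 in E113K. Psip1, which tethers MLL to chromatin, fell in every mutant but E71K, by 1.31 in E113K. Retinoic acid and the Cdx factors switch Hox genes on in the embryo. Cdx1, Cdx2 and Cdx4 were below the filter and were not tested. Of 6 tested genes of the retinoic acid pathway, 1 rose and 2 fell in E71K, 1 and 1 in E71Q, 0 and 1 in E76K, 2 and 1 in E76Q, 2 and 2 in E113K and 1 and 1 in E113Q, with medians from -0.18 in E71K to 0.17 in E113K. Aldh1a1, an enzyme that makes retinoic acid, fell in all 6, from 12.0 ± 0.932 TPM in WT to 0.447 ± 0.211 TPM in E113K. Cyp26b1, which breaks it down, rose in E71K, E71Q, E76Q and E113Q and fell in E113K, with means of 143 ± 40.0 TPM in E71K and 5.44 ± 0.181 TPM in WT.

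Limb and axial patterning factors share the Hox genes' field of action. Of 10 tested, 2 rose and 1 fell in E71K, 4 and 1 in E71Q, 6 and 1 in E76K, 7 and 1 in E76Q, 9 and 0 in E113K and 6 and 0 in E113Q. Over all tested genes, 12.5% were higher and 14.2% lower in E71K, 20.7% and 23.5% in E71Q, 23.5% and 9.67% in E76K, 22% and 22.4% in E76Q, 30.3% and 20.7% in E113K and 17.9% and 12.7% in E113Q. The median of these factors ran from 0.22 in E71Q to 0.69 in E76K, beside at most 0.16 over all tested genes in any of these comparisons. Shox2, a gene of the upper limb bones, rose in all 6, from 3.50 ± 0.308 TPM in WT to 11.3 ± 2.14 TPM in E76K. Fgf10, a growth factor that starts limb outgrowth, rose in every mutant but E71K, from 4.04 ± 0.244 TPM in WT to 37.6 ± 4.02 TPM in E113K. Emx2, a homeobox gene of the shoulder girdle and brain, fell in the E71 and E76 mutants and rose in both E113 mutants. Its means were 2.14 ± 0.127 TPM in WT, 0.115 ± 0.0616 TPM in E76K and 4.22 ± 0.491 TPM in E113K.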

How the data were processed

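The authors deposited TPM per gene for 21 libraries of RNA sequencing and the mean TPM of each group, which was not used. Salmon, featureCounts 1.4.4, DESeq and build mm10 are named in the submitters' processing notes. Which of them made the TPM, and whether libraries were stranded, is not given in the sources used here. TPM summed to 999897 to 999931 per library and keeps no read depth. From the TPM, log2(TPM + 1) was fitted with a model of the 7 groups in limma 3.58.1 (R 4.3.3, moderated variances with an intensity trend, 14 residual degrees of freedom) over 12192 genes with an overall mean of 1 TPM or more, with Benjamini-Hochberg adjustment of the p-values of each comparison. The procedure was tested on simulated data. Errors are SD (n = 3) for TPM and SE for log2 fold changes.

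The members are all symbols of the pattern Hox, a cluster letter and a number. Members with an overall or group mean of 1 TPM or more are described singly, the others by range and count, and up to 4 called genes of each related list with the largest fold change may be named. Members and lists were chosen with earlier results of these data known. Low Hox genes named, untested noncoding and flanking genes, the epithelial markers named, Thy1 and Mir6236 were chosen after their values were seen. Alternatives were pseudocounts of 0.1 and 5, no filter, a mean of at least 5 TPM, median-ratio rescaling, a replicate block, a fit restricted to the 6 libraries of a comparison, and leaving out single libraries. Leaving out Mir6236 and the 4 libraries set apart was added after seeing the data. Gene positions are RefSeq GRCm38.p6, matched by Entrez identifier for all 39 members. 1 member and 1 cofactor are not reported singly here.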

Additional observations from a re-analysis of the deposited data

Results flagged for a closer look

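Each of these 9 results is a test of whether the lysine minus glutamine difference, on the log2(TPM + 1) scale, differed between 2 H2B residues (limma interaction terms, adjusted over all tested genes). Between E76 and E71 it differed by 4.77 ± 0.24 SE for Hoxc13 (adjusted p = 1.33e-10), by -4.60 ± 0.20 SE for Hoxc9 (adjusted p = 1.9e-11) and by -1.28 ± 0.30 SE for Hoxc6 (adjusted p = 0.00461). Hoxc13, which passed the filter only through E76K, was higher with lysine at E76. Hoxc9 and Hoxc6 were higher with glutamine there, whereas at E71 Hoxc9 was higher with lysine. Between E113 and E71 the difference was -1.21 ± 0.31 SE for Hoxb6 (adjusted p = 0.00605) and -1.05 ± 0.20 SE for Hoxc9 (adjusted p = 0.000675), a gene listed at 0 in all E113 libraries. Between E113 and E76 it was -5.26 ± 0.24 SE for Hoxc13 (adjusted p = 5.31e-11), 3.55 ± 0.20 SE for Hoxc9 (adjusted p = 5.65e-10), 0.82 ± 0.28 SE for Hoxa2 (adjusted p = 0.0332) and 0.63 ± 0.19 SE for Hoxa3 (adjusted p = 0.0199). The Hoxa2 result was lost in 8 of 12 fits with 1 library left out (adjusted p of 0.052 to 0.0707), the Hoxa3 result without E76K replicate 1 (adjusted p = 0.0659) and the Hoxc6 result with a pseudocount of 0.1 (adjusted p = 0.0685). Since Hoxc9 was listed at 0 in all 6 E113 libraries, its values in the comparisons with E113 restate the differences within E71 and within E76 and measure nothing at E113. Without the 4 libraries set apart, 5 Hox genes differed between E76 and E71, 8 between E113 and E71 and 7 between E113 and E76. The matching shares of all tested genes were not recorded. Groups of 3 libraries were not screened for single outlying values.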

How the results depend on the processing

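The number of Hox genes called against WT (5, 5, 6, 6, 8 and 5 in E71K, E71Q, E76K, E76Q, E113K and E113Q) was 10, 11, 16, 14, 15 and 11 with no filter, which adds 24 members, and 2, 2, 2, 3, 5 and 2 with a mean of at least 5 TPM, which removes 6. In the same order of filters it was 5 and 0 for E71K against E71Q (2), 14 and 2 for E76K against E76Q (6) and 24 and 6 by the F test (11), and it was 1 with the higher minimum for E113K against E113Q (2). The shares of all genes called in either direction with these filters were not recorded, so nothing about the Hox genes is read from these counts. In E71K it was 8 with rescaling, 8 without the 4 libraries set apart and 3 in the fit of 6 libraries. Calls over all genes rose there too, from 3250 to 5135 with rescaling and to 4939 without those libraries. E71K against E71Q gave 5 without the set-apart libraries, beside 6541 of all tested genes. E113K against E113Q gave 6 without them, beside 5486, and gave 4 with a pseudocount of 0.1 and 4 in the fit of 6 libraries. Leaving out 1 library gave 3 (without WT replicate 3) to 7 in E71K, 4 to 7 in E71Q, 4 to 6 in E76K, 6 in every fit in E76Q, 6 to 7 in E113K and 4 to 5 in E113Q. It gave 2 to 3 for E71K against E71Q, 3 (without E76K replicate 1) to 6 for E76K against E76Q, 0 (without any single E113K library) to 2 for E113K against E113Q, with 1 without E113Q replicate 1, and 9 to 11 by the F test. The matching shares of all genes were not recorded for these fits, the pseudocount of 0.1 or the fit of 6 libraries. Nothing about the Hox genes is read from those counts either. Of 108 single values, 2 reversed with a call in either fit, both without the set-apart libraries: E71K against E71Q for Hoxa10 (-0.54) and Hoxa2 (-0.31). Sign changes between uncalled values were not counted as reversed. Hoxa7 in E71K against WT was such a case, at 0.15 with all libraries and -0.09 without those set apart. The causes were not tested.

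Pairing of libraries by replicate number was not evident. Same-numbered libraries correlated above 0.1 in 13 of 63 pairs (median -0.00111, highest 0.416), and 7 of 21 libraries correlated best with their own number. With so few libraries per group, a weak pairing could be missed. With the replicate block the counts against WT were 6, 6, 5, 6, 8 and 5, those of lysine against glutamine 2, 6 and 2 and that of the F test 11. The shares of all genes called with the block were not recorded, so nothing about the Hox genes is read from these counts. Rescaling moved the share of higher calls among all genes from 70.8% to 53.1% in E76K and from 73.5% to 49.5% in E76K against E76Q, and leaving out Mir6236 moved it from 46.9% to 65.8% in E71K. Depth is unknown for all libraries.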
